A study of Drosophila melanogaster with 2 samples.

Results

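The 86 cytoplasmic ribosomal protein genes of Drosophila melanogaster, out of 13986 protein-coding genes in the annotation, were examined for binding of the CkIIalpha-i1-eGFP fusion protein at their transcription starts. Members were the genes whose symbol is RpL or RpS with a number and any letter suffix, together with RpLP0, RpLP1, RpLP2 and sta. They comprised 48 genes of the large ribosomal subunit and 38 genes of the small subunit. The data are chromatin immunoprecipitation with sequencing (ChIP-seq) from 1 group, whole embryos 0 to 18 hours old of the strain CkIIalpha-i1-GFP, in 2 biological replicates labelled 1 and 2. The strain carries CkIIalpha-i1 fused to eGFP, a green fluorescent protein tag, and an antibody against the tag was used for the precipitation. Chromatin was sheared by sonication to 200 to 800 bp. No second genotype, age or control library was analysed here, so no difference between conditions could be tested. Embryos of all those ages and all their tissues were combined, and the peak lists hold no expression values with which to check the embryonic tissue.

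Each ribosome of the cytoplasm is built from ribosomal RNA and, for most ribosomal proteins, a single copy of each, and the members are transcribed together and strongly in growing cells. In Drosophila many of them start transcription at a TCT initiator, a short pyrimidine run with its C at the start site, in place of the more common initiator. Loss of 1 copy of many of these genes gives the Minute phenotype of slow development and short bristles. CkIIalpha-i1 takes its name from an interaction with casein kinase II, and its role at ribosomal protein genes is not stated in the labels.

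The promoter sequences of 5 members are shown because they carry the strongest signals or a recognised promoter word near the centre of binding. Each runs 5′ to 3′ on the strand of its gene, from 110 bases before the 5′-most annotated start to the first 12 transcribed bases, in the RefSeq sequence of the dm6 (Release 6) assembly. Capitals mark the TCT initiator (CCTTT or TCTTT), the E-box CAGCTG and the DNA replication-related element TATCGATA, called DRE. They also mark the word ACAGTGG, found in an earlier search of these peaks. Other words searched for are left in lower case, such as the TATA word of RpS25 (TATAAA, on the other strand). RpS27 (chr3R:25247503-25247624, minus strand) had the highest signal of all members, with the summit 20 bp upstream of the start and CAGCTG beginning 19 bp upstream. RpS27 also has a TCT initiator, at another start beyond the printed bases, with the summit at -66 bp from its C. RpL34b (chr3R:9401215-9401336, minus strand) had the next highest signal, with its summit at -73 bp and ACAGTGG at -46 bp. RpL28 (chr3L:3222949-3223070, minus strand), RpS25 (chr3R:11216276-11216397, minus strand) and RpS12 (chr3L:13023242-13023363, plus strand) each held a DRE within 100 bp of the summit, at -92, -59 and -41 bp.
RpS27: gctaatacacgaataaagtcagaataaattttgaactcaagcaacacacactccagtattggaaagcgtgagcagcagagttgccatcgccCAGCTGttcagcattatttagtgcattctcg
RpL34b: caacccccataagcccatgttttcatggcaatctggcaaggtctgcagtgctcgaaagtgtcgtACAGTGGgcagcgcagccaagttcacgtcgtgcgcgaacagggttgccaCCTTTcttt
RpL28: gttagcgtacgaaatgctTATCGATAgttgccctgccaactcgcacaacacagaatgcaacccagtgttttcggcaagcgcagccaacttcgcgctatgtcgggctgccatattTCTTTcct
RpS25: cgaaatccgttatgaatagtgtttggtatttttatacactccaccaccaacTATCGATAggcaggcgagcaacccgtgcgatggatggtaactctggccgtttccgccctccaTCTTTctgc
RpS12: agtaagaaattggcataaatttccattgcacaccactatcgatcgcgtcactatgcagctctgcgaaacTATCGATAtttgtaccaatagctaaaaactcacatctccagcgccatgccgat

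The deposited files gave 4 thresholded peak lists, 1 for each replicate and 2 for the series, each with a far longer ranked list of candidate peaks behind it. Peaks in the thresholded lists had an irreproducible discovery rate (IDR, the rate at which peaks of that rank are expected not to repeat between 2 input lists) of 0.01 or less. The series-wide list of 663 peaks, ranked from 139481 candidates, is called the conservative list and the one of 944 peaks the pooled list. Replicate 1's own list held 427 peaks and that of replicate 2 held 569 peaks. Every peak carries a signal value, the authors' own score, whose scale is not stated. A gene was counted as having a peak, or a candidate, when its summit lay within 500 bp of any annotated start of that gene. Read counts are not in these lists, so depth is unknown, and Wilson 95% intervals on shares cover counting error over genes only.

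In the conservative list 20 of the 65 ribosomal protein genes with a candidate at a start had a peak there (30.8%, Wilson interval 20.9 to 42.8%), against 442 of 10526 protein-coding genes (4.20%). In that list the 86 members had a candidate at a start about as often as all 13986 genes, at 65 members (75.6%) and 10526 genes (75.3%). The pooled list gave a similar result, with 22 of 71 members (31.0%, 21.4 to 42.5%) against 5.07% of 11114 genes. Both series-wide lists come from the same 2 replicates, so the pooled list is not a separate measurement. The replicates' own lists gave unlike results. Replicate 1 had peaks at 12 of 78 members (15.4%, 9.03 to 25%) against 2.79% of 10571 genes, while replicate 2 had peaks at 3 of 53 members (5.66%, 1.94 to 15.4%) against 4.16% of 8793 genes. The share in replicate 2 was thus near that of all genes, and its interval included it. Replicate 1's list had a candidate at 90.7% of members and 75.6% of genes, and replicate 2's list at 61.6% and 62.9%.

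The same members recurred across the lists only in part. Of the 20 members with a conservative peak, 11 also had a peak in replicate 1's list and 3 in replicate 2's list (RpL23, RpL34b and RpS4). The remaining 9 (RpL14, RpL22, RpL30, RpL32, RpS12, RpS19a, RpS25, RpS28b and RpS29) had one in neither replicate's list. Of the 442 protein-coding genes with a conservative peak, 252 (57.0%) also had one in replicate 1's list, 301 (68.1%) in replicate 2's list and 91 (20.6%) in neither. The members' 11 of 20 in replicate 1's list was thus near the share of all such genes, and their 3 of 20 in replicate 2's list was below it. RpL34b and RpS4 were the members with a peak in all 4 lists, and 25 members had a peak in at least 1 list. The conservative and pooled lists shared 17 members, which is 17 of the 20 conservative members and 17 of the 22 pooled ones. RpL10Ab, RpL13, RpS10b, RpS14b and RpS21 had a pooled peak without a conservative one, and RpL23, RpS25 and RpS28b a conservative peak without a pooled one. For all protein-coding genes, overlaps with the pooled list and across all 4 lists are not given here. Those counts thus describe the members only and show nothing particular to them.

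The ranked conservative list also gives, for each candidate, the signal value of its 2 input peaks. In the whole list 96377 peaks of input 1 were identical in position and signal to a peak of replicate 1's own list, and 96251 of input 2 to one of replicate 2's, with 0 matches to the other replicate in either case. At the strongest candidate of the 65 members, 62 input 1 peaks and 52 input 2 peaks were identical to those of the matching replicate. Input 1 is therefore read as replicate 1 and input 2 as replicate 2, and a ratio between them assumes that both were scored alike. With 1 value from each replicate, no error within a replicate can be given.

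Among large subunit genes, 12 of 35 with a candidate had a conservative peak. RpL34b (FBgn0037686), whose promoter is shown above, had a signal value of 135.5 (rank 149 of 663, IDR 0.000899), and its inputs were nearly equal at 66.5 in replicate 1 and 65.3 in replicate 2. RpL7 (FBgn0005593), on 2L, had 128.5 with the summit 24 bp downstream of the start, from 91.7 in replicate 1 and 33.2 in replicate 2. The start of Ripalpha, on the other strand, was 54 bp from that summit. RpL41 (FBgn0066084), which encodes the smallest ribosomal protein, had 113.1 at -64 bp, from 73.0 in replicate 1 and 33.5 in replicate 2. RpL34b was thus even between the replicates, whereas RpL7 and RpL41 drew most of their signal from replicate 1.

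RpL27A had a signal value of 88.9 with the summit at 8 bp, from 49.5 in replicate 1 and 32.7 in replicate 2. RpL32, whose transcript (rp49) is widely used as a reference in fly expression studies, had 85.6 at -196 bp, from 35.0 in replicate 1 and 49.7 in replicate 2. Its summit was the farthest from a start among the 20 members, and the start of CG7943 on the other strand was nearer to it, at 113 bp. RpL23A, which lines the mouth of the exit tunnel for the nascent chain, had 80.4 at -86 bp, from 46.4 in replicate 1 and 36.7 in replicate 2. RpL30 had the same signal value, 80.4, at -5 bp, with 36.9 in replicate 1 and 35.5 in replicate 2. These 4 genes spanned a narrow range of signal, and RpL32 was the one among them with the higher value in replicate 2.

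The other large subunit peaks had lower signals. RpL3, which reaches toward the peptidyl transferase centre, had 72.6 at 43 bp (43.6 in replicate 1, 29.2 in replicate 2). Among the 20 members with a conservative peak, its summit was the only one inside an intron. RpL22 had 70.1 at -58 bp (37.8 in replicate 1, 29.7 in replicate 2). RpL28, with a DRE in the sequence above, had 68.9 at -69 bp (41.5 in replicate 1, 26.4 in replicate 2). The summits of the RpL28 and RpL3 peaks each had a facing start within 500 bp, of the initiation factor gene eIF1 and of CG6693. RpL14 had 67.0 at -48 bp (34.8 in replicate 1, 38.3 in replicate 2), with the start of Nelf-E 79 bp from the summit. RpL23, which in the free large subunit is the landing site of the assembly factor eIF6, had the lowest signal of the 20 members, 57.7 at -185 bp (42.1 in replicate 1, 45.7 in replicate 2), with rank 644 of 663. RpL23 was nevertheless among the 3 members in both replicates' own lists. Its strongest candidate lay at -95 bp in replicate 1's list and at -238 bp in replicate 2's list. The 2 input summits were 143 bp apart, so these lists did not place it at the same position.

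Among small subunit genes, 8 of 30 with a candidate had a conservative peak. RpS27 (FBgn0039300), a zinc finger protein of the small subunit whose promoter is shown above, had a signal value of 146.1 (rank 123 of 663, IDR 0.000960), from 91.3 in replicate 1 and 51.2 in replicate 2. It was in replicate 1's own list, at rank 73, and not in that of replicate 2. RpS4 (FBgn0011284) had 94.9 at -11 bp, from 58.5 in replicate 1 and 34.7 in replicate 2, and ranked 201 in replicate 1's list and 551 in replicate 2's list. RpS28b had 80.2 at -19 bp, from 37.5 in replicate 1 and 36.2 in replicate 2. RpS23, a protein of the decoding centre, had 75.4 at -8 bp, from 48.8 in replicate 1 and 26.2 in replicate 2. The replicates were within a few units of each other at RpS28b and far apart at RpS27.

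RpS12, which in Drosophila is required for the elimination of Minute cells by cell competition, had 71.5 at 16 bp (40.3 in replicate 1, 31.1 in replicate 2). RpS19a, whose human counterpart is mutated in Diamond-Blackfan anaemia, had 71.2 at -39 bp (35.0 in replicate 1, 37.7 in replicate 2). RpS29 had 68.9 at 15 bp (40.0 in replicate 1, 26.7 in replicate 2). RpS25 had 58.9 at -46 bp (33.7 in replicate 1, 27.7 in replicate 2) and the highest IDR of the 20 members, 0.00948. Input signal was higher in replicate 2 at RpL14, RpL23, RpL32 and RpS19a and higher in replicate 1 at the other 16 members with a conservative peak.

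**Figure D1:**
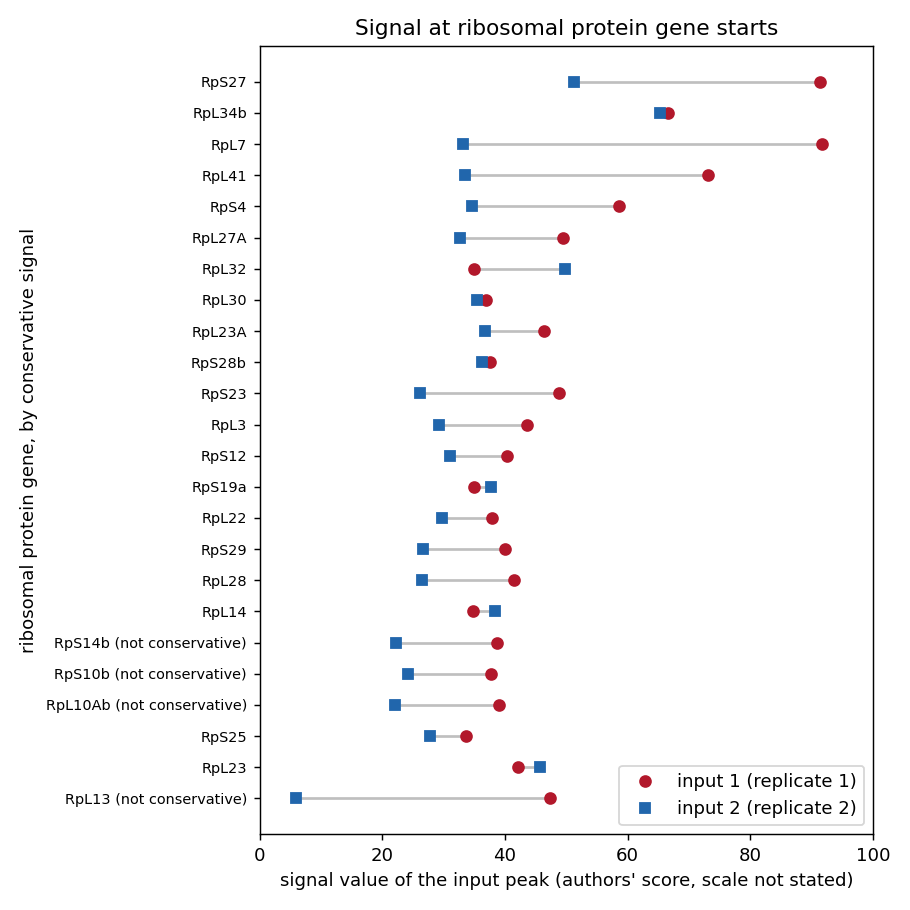
Signal values (horizontal axis, authors' score, scale not stated) of the input peaks at the strongest start candidate of 24 ribosomal protein genes with a peak in any list, ordered by conservative signal, with circles for replicate 1 and squares for replicate 2. RpS21, the 25th gene, had no conservative candidate and is not drawn. RpL7, RpS27 and RpL41 have the widest gaps among the 20 members with a conservative peak, and RpL34b, RpL30 and RpS28b nearly coincide.

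Several members lay just outside the conservative threshold of IDR 0.01. RpL8 had a candidate with a signal value of 59.3 and an IDR of 0.0105, above the signals of RpS25 and RpL23, which were inside. RpS10b followed with 60.8 (IDR 0.0128), RpL13A with 58.2 (0.0186), RpS14b with 65.2 (0.0195), RpL10Ab, which forms the L1 stalk, with 60.4 (0.0200), and RpLP0, the base of the P stalk that recruits elongation factors, with 65.1 (0.0213). RpLP0, RpL8, RpL13A and RpS15Aa, the last with 55.7 and an IDR of 0.343, had the highest signals of the members with no thresholded peak in any list. The partner stalk gene RpLP1 had inputs of 29.8 in replicate 1 and 11.6 in replicate 2, and sta, a small subunit gene, had a signal value of 45.8, from 18.2 in replicate 1 and 24.2 in replicate 2. RpL13, whose start faces that of the factor gene Dref, had a signal value of 48.7 with an IDR of 0.699, from 47.4 in replicate 1 and 6.0 in replicate 2. It was the 1 member in replicate 1's own list (rank 308) that had no conservative peak. RpS21 had no conservative candidate, but its pooled-list peak had a signal value of 72.6 at -15 bp, and replicate 1's own list held a candidate of 35.3 there.

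The merged signal at the members ranked high among protein-coding genes. The strongest candidate of each of the 65 members had a signal with a median of 48.1 (interquartile range 30.3 to 68.9, lowest 14.3, highest 146.1), against 24.8 (17.9 to 33.7) for the 10526 protein-coding genes. The median member stood at percentile 91.6 of all those genes. Of the members, 35 (53.8%) were above the 90th percentile, where 10% of all genes lie by construction, and these 35 include the 20 members with a conservative peak. The 45 members with a candidate and no conservative peak had a median signal of 34.5, against 24.3 for the 10084 genes in that position. Of the 45, 15 (33.3%) were above the 90th percentile, against 611 of the 10084 genes (6.06%). Large subunit genes had a median of 54.5 (n = 35) and small subunit genes 37.2 (n = 30), and their interquartile ranges, 32.4 to 69.5 and 28.8 to 64.1, overlapped over most of their length.

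Among genes with a conservative peak the order was the other way round. Over the 20 members the median was 77.8 (interquartile range 69.8 to 90.4, lowest 57.7, highest 146.1), against 98.7 (75.7 to 142.7, lowest 53.5, highest 700.6) for all 442 genes with such a peak. At the stricter IDR of 0.001, 2 of the 20 members (10%), RpS27 and RpL34b, and 124 of the 442 genes (28.1%) remained. The upper end of the list's signal range was thus held by other genes.

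The members ranked higher in replicate 1 than in replicate 2. Over all 65 members with a candidate the median stood at percentile 93.6 by input 1 and 79.0 by input 2. At the 20 with a conservative peak it stood at 97.1 by input 1 and 95.5 by input 2. All 442 genes with such a peak stood at 97.7 and 97.7. At the 45 members without one it stood at 87.7 by input 1 but at 51.2 by input 2, near the middle of all genes. The 10084 genes without one stood at 47.9 and 47.9. The median input 2 signal of those 45 members was 11.8. The IDR that splits these groups compares the same 2 inputs, so high percentiles in both at the 20 are partly set by the split. Input 1 signal had a median of 30.7 at the members and 13.8 at all genes, and input 2 signal 17.8 at the members and 11.6 at all genes. Input 1 was the higher of the pair at 55 of 65 members (84.6%), against 6125 of 10526 genes (58.2%). The log2 ratio of input 1 to input 2 had a median of 0.66 (interquartile range 0.34 to 1.12) at the members and 0.21 (-0.45 to 0.88) at all genes. Among genes with a conservative peak the ratio had a median of 0.36 at the 20 members and -0.12 at all 442 genes, so the members leaned to replicate 1 in a list that leaned slightly to replicate 2. Across the 65 members the log2 inputs correlated with Pearson's r of 0.61 and Spearman's rho of 0.63, and across the 10526 genes with 0.38 and 0.29. These correlations are across genes of the same 2 libraries and are given as a description, and the part that depth or enrichment of either library played was not tested.

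**Figure D2:**
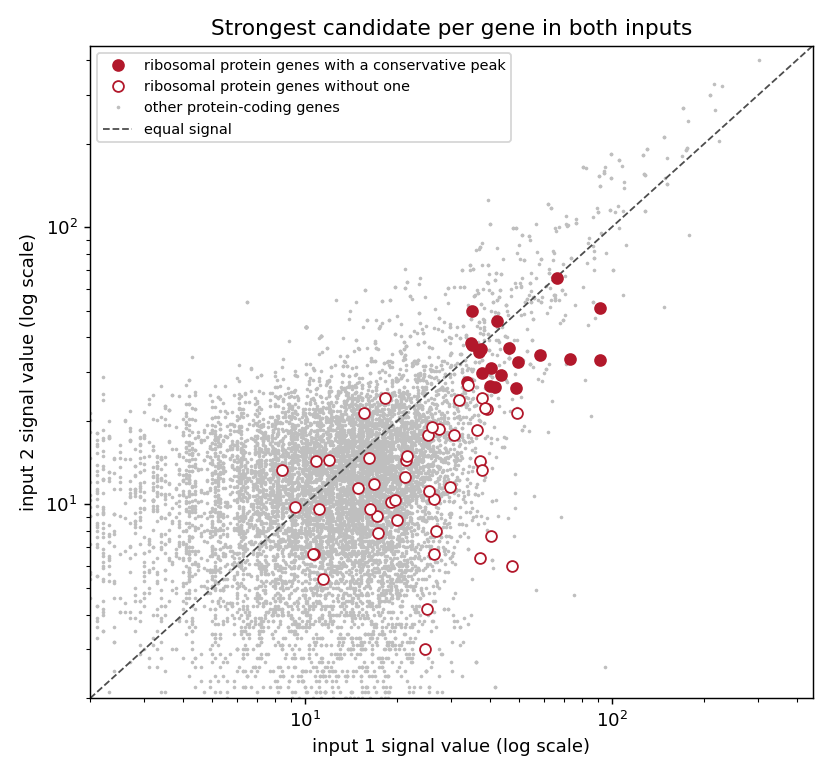
Input 1 against input 2 signal (both log axes, authors' score) at the strongest start candidate of each protein-coding gene, with filled circles for the 20 ribosomal protein genes with a conservative peak, open circles for those without and grey points for other genes. Most members lie below the dashed line of equal signal, where 55 of 65 had the higher value in input 1.

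Summits at the members lay just upstream of the start, closer to it than at all genes with a peak. The summits of the 20 conservative peaks had a median position of -29.5 bp (interquartile range -65 to -2, lowest -196, highest 43), against -136 bp (-210 to -73) for all 442 genes. Of the members 18 (90%) had the summit within 100 bp of a start, compared with 133 of the 442 genes (30.1%). The exceptions were RpL32 and RpL23, at -196 and -185 bp. The same held for the members without a conservative peak, of which 27 of 45 (60.0%) had their strongest candidate within 100 bp of a start, compared with 22.5% of 10084 genes. Summits of the 2 inputs lay a median of 27.5 bp apart at the 20 members. By the annotation 14 of the 20 summits lay outside the gene, 5 in a 5′ untranslated region and 1 in an intron. A start of another gene on the opposite strand lay within 500 bp of 12 of these summits (60.0%), compared with 234 of 442 (52.9%) for all genes, so a peak at these 12 cannot be given to 1 of the facing genes. Peaks of 284 bp from fragments of up to 800 bp set the resolution of these positions.

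**Figure D3:**
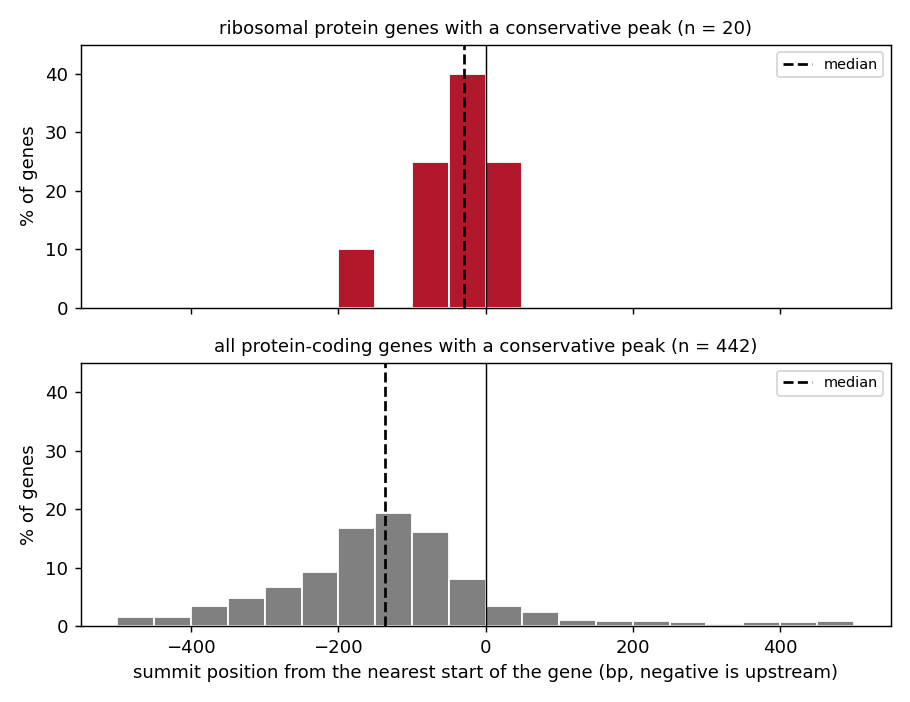
Positions of conservative peak summits from the nearest start of the gene (horizontal axis, bp, negative is upstream, bins of 50 bp) as the percentage of genes, for 20 ribosomal protein genes in the upper panel and 442 protein-coding genes, the 20 included, in the lower panel. The members gather just upstream of the start with a dashed median at -29.5 bp, and all genes spread farther upstream with a median at -136 bp.

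A pair of genes encodes the same ribosomal protein in 8 cases, and the signal values of the partners differed. RpL34b, at 135.5, contrasted with RpL34a, at 47.7 and -138 bp. RpS28b had 80.2 and RpS28a 14.3, both at -19 bp, and RpS19a had 71.2 whereas RpS19b had 14.3 at 430 bp. RpL10Ab, RpS10b and RpS14b each had a pooled peak, with conservative signals of 60.4, 60.8 and 65.2, and their partners RpL10Aa, RpS10a and RpS14a had 27.2, 37.5 and 36.7. RpS5a had 43.3 at -61 bp and RpS5b 20.4 at -407 bp, neither with a peak. RpS15Aa had 55.7 and RpS15Ab no conservative candidate. In none of the 8 pairs did both partners have a thresholded peak in any list. Partners can share sequence, so how reads were divided between them is uncertain, since read placement is not given in the sources used here.

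Of the 86 members, 21 had no conservative candidate at a start. Replicate 1's own list held a candidate at 13 of these 21 and replicate 2's own list at 0. RpL10, RpL15, RpL21, RpL38, RpL40, RpS24 and RpS3A had none in any of the 4 ranked lists, and their nearest conservative candidate lay between 594 and 35777 bp away. The same split of all protein-coding genes is not given here, so these counts describe the members only and show nothing particular to them. The conservative list pairs peaks of both replicates, so the 0 in replicate 2's list is partly set by the split. The share of members with a candidate differed between chromosome arms. All 14 members on X and 21 of 22 on 3R had one, and 11 of 14 on 3L, but 11 of 18 on 2R and 8 of 17 on 2L, whereas the share of all protein-coding genes was 76.8% on X, 78.3% on 3R, 75.1% on 3L, 78.4% on 2R and 69.8% on 2L. Conservative peaks lay at 3 members on 2L, 3 on 2R, 5 on 3L, 6 on 3R and 3 on X. Among all protein-coding genes they lay at 81 on 2L, 83 on 2R, 94 on 3L, 112 on 3R and 72 on X. The 1 member on chromosome 4 had neither a candidate nor a peak. Of the 80 protein-coding genes on chromosome 4, a candidate lay at 4 (5%) and a peak at 0, so most genes there lacked both.

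Other genes of protein synthesis had lower shares of peaks than the members, though above the 4.20% of all protein-coding genes. These shares rest on 7, 4 and 2 genes with a peak. Mitochondrial ribosomal protein genes, which serve the separate ribosomes of the mitochondrion, had a conservative peak at 7 of 53 with a candidate (13.2%), and their median candidate stood at percentile 51.1. The peaks of those 7 had a median signal of 246.0 and a median position of -184 bp, with no test of the difference from the members' peaks. Peaks in the replicates' own lists were at 12 of the 86 members in replicate 1 and 3 in replicate 2. They were at 4 of the 73 mitochondrial ribosomal protein genes in replicate 1 and 7 in replicate 2. Of all 13986 protein-coding genes, 295 had one in replicate 1 and 366 in replicate 2. Translation initiation and elongation factor genes had a peak at 4 of 36 (11.1%; eEF1gamma, eIF1, eIF4EHP and eIF6), with a median candidate at percentile 61.9. Ribosome assembly factors had one at 2 of 17 (11.8%; NHP2 and eIF6), with a median candidate at percentile 34.6. The eIF1 start faces RpL28, and eIF6 stands in both lists.

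The promoters of the members, read from 250 bp before to 50 bp after every start, were searched for 8 words on both strands and for the TCT initiator on the sense strand, TCTTT or CCTTT with its C within 5 bp of a start. The TCT initiator was at 54 of 86 members (62.8%, Wilson interval 52.2 to 72.3%), against 3.31% of 13945 genes. It was at 14 of the 20 members with a conservative peak (70.0%), at 40 of the 66 without (60.6%) and at 7.24% of all genes with a conservative peak, so that the initiator was common at members with and without a peak. Summits at those 14 lay a median of 58 bp upstream of the C (lowest -199, highest 40), and 13 of them lay within 100 bp of it.

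The DRE (TATCGATA), the word bound by the factor Dref, was at 25 members (29.1%, 20.5 to 39.4%), against 10.2% of genes. The word of the factor M1BP (GGTCACAC) was at 15 members (17.4%), against 8.71%. In these promoters the DRE was at 25% of the 20 members with a conservative peak and 30.3% of the 66 without. It was thus no more common at members with a peak. GGTCACAC was at 20% of the members with a peak and 16.7% of those without. Within 100 bp of the summit the DRE was found at 5 of the 20 members (25%; RpL28, RpL41, RpS12, RpS25 and RpS29), against 6.11% of the 442 genes, and GGTCACAC at 4 (20%; RpL7, RpL27A, RpL30 and RpS23), against 2.94%. The E-box CACGTG was near 3 summits (15%), against 2.26%. The GAGA word (GAGAG) went the other way, near 1 summit of 20 (5%) and 22.2% of the 442, and the TATA word (TATAAA) was near 5 (25%) and 40.3%. In the promoters GAGAG was at 20.9% of the 86 members and 36.3% of genes. TATAAA was there at 54.7% and 51.2%, so its lower share was seen near summits only. The E-box CAGCTG was near 1 summit, that of RpS27, and near 13.3% of the 442. The words ACAGTGG (word A) plus CAGTGTA (word B), which an earlier search of these same peaks returned, were near 2 (10%; RpL32 and RpL34b) and 0 of the member summits, and near 13.1% and 5.66% of the 442. The windows around summits lay nearer the start at the 20 members (median -29.5 bp) than at the 442 genes (-136 bp). How far this sets the differences near summits was not tested. A match is a description of the letters and not a measured binding site.

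**Figure D4:**
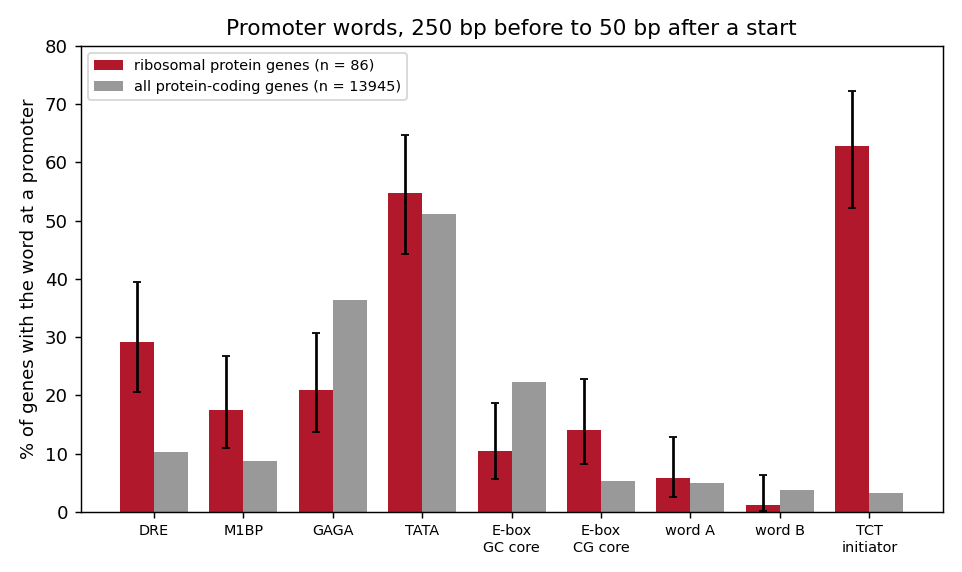
Percentage of genes with each promoter word from 250 bp before to 50 bp after a start, for 86 ribosomal protein genes (left bars, with Wilson 95% intervals) and 13945 protein-coding genes (right bars), where word A is ACAGTGG, word B is CAGTGTA, the E-box with a GC core is CAGCTG, and the other E-box is CACGTG. The TCT initiator stands out at 62.8% of the members and 3.31% of all genes, and the DRE is at 29.1% and 10.2%.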

How the data were processed

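ChIP-seq peak lists of 2 biological replicates of 1 group were used. Which aligner and which caller made the peaks is not given in the sources used here. The authors deposited 8 lists on dm6, 4 ranked and 4 thresholded, with a signal value and a scaled IDR score for each peak. The deposited ranked lists also hold the −log10 of the global IDR, from which the IDR was computed, and the signal value of each input peak. Every peak of the 4 thresholded lists had an IDR of 0.01 or less in its ranked list. Starts and locations came from Ensembl BDGP6.54 (release 115) and sequences from the RefSeq Release 6 reference. For each gene and list, the candidate of highest signal with its summit within 500 bp of a start was kept. The search for these candidates was tested on planted peaks.

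With 1 group and no control library no test was made, and the members are set beside all protein-coding genes, which include them. The members and the gene lists were chosen with earlier results of these data known. Genes named are those with a thresholded peak at a start, the 4 of highest signal without one, the 4 of highest signal in each input, those with no candidate in any list, and pairs of duplicated genes; RpLP1 and sta were added after their values were seen. Depth is unknown. Alternatives were the distance to a start, the symbol rule, the start used, the list, the IDR threshold and leaving out each replicate. The versions were Python 3.11.15, scipy 1.17.1, pandas 2.3.3 and numpy 2.4.6, with matplotlib 3.10.9 for figures.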

Additional observations from a re-analysis of the deposited data

Results flagged for a closer look

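A candidate of the pooled ranked list at RpL13A (signal value 58.2, summit at -121 bp, IDR 0.00813) was past the IDR threshold but was not in the pooled thresholded list, so it counted as no peak in the report. The pooled list left out 68 such candidates in all.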

How the results depend on the processing

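Of 73 values under alternatives, 57 stayed within the limits set for them, 16 moved and 0 reversed. Each replicate was left out in turn by using the other replicate's own list. Without replicate 1, 3 members had a peak in place of 20 (5.66%, against 4.16% of genes), at a median position of -72 bp. Without replicate 2, 12 members had one (15.4%, against 2.79% of genes), at -13 bp. The median signals there, 45.7 and 49.1, are scores of single-replicate lists. Signal values are compared within a list only, so these do not measure a change from the merged median of 77.8. An IDR of 0.001 left 2 members (3.08%, against 1.19% of genes), with a median signal of 140.8. Among all candidates of the list, in place of those at starts, the median member stood at percentile 99.0 by input 1 and 89.2 by input 2. An IDR of 0.05 gave 26 members (40.0%, against 7.05% of genes). Within 100 bp of the summits of the 20 members with a peak, in place of the promoters of all 86, the shares of GAGA (5%), TATA (25%), CAGCTG (5%) and CAGTGTA (0) moved, a change of both window and gene set. Leaving out peaks with a facing start within 500 bp, an alternative added after seeing the data, gave a median position of -6.5 bp. Changing the start distance, the symbol rule, the start used or the overlap rule moved none of the counts of members by over 1.5 times. No paired analysis was possible because there is 1 group. The lists give no read counts, so how far depth sets the difference between the replicates cannot be told.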
